A study of Homo sapiens with 12 samples.

Results

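The expression of 10 chromatin silencing genes was followed across the 4 groups of a drug experiment on retinoblastoma cells. They encode the catalytic subunits EZH1 and EZH2 of Polycomb repressive complex 2 (PRC2), its core subunits EED and SUZ12, its cofactor JARID2, the DNA methyltransferases DNMT1, DNMT3A and DNMT3B, the chromatin remodeller HELLS and the methylcytosine oxidase TET1. The members were chosen by symbol, as genes described as raised in tumours that lack RB1. All 10 of 10 were found and passed the filter on low counts, among 14865 annotated genes tested of 19974 in the table. The cells were WERI-Rb-1 (WERI below) and Y79, established human lines derived from retinoblastoma, a childhood eye tumour. Cultures of both received 50 nM THZ1, which binds covalently to CDK7 and also to CDK12 and CDK13, or 0.1% DMSO, the solvent, and were harvested after 12 h. Each of the 4 groups (WERI DMSO, WERI THZ1, Y79 DMSO, Y79 THZ1) held 3 cultures described as biological repeats, and the labels give the genotype of every culture as WT. No line with intact RB1 was part of the design, so the groups compare 2 retinoblastoma lines with each other and drug with solvent, and they cannot show whether the genes are raised in tumours without RB1.

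PRC2 places methyl groups on lysine 27 of histone H3, a mark of silenced developmental genes. EZH2 is the enzyme of dividing cells and EZH1 is better known from resting and differentiated cells, while EED and SUZ12 are needed for the complex to hold together and work. DNMT1 copies DNA methylation onto the new strand after replication, DNMT3A and DNMT3B set it on unmethylated DNA, and TET1 oxidises methylcytosine as a step towards its removal. In normal cells the RB1 protein holds E2F transcription factors in check, and EZH2, DNMT1, HELLS and UHRF1 are widely described E2F targets.

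Parts of the members' promoters are shown because E2F factors bind short GC-rich octamers close to transcription starts. RefSeq windows on GRCh38.p14, from 250 bases before to 50 bases after each start, were searched on both strands for TTTCCCGC, TTTCGCGC, TTTGCCGC and TTTGGCGC. TTTCGCGC and its reverse complement GCGCGAAA can overlap each other. At least 1 octamer stood in a window of 5 of the 10 members, namely EZH2, EZH1, SUZ12, DNMT1 and HELLS, whereas 3.31% of all 35116 windows and 6.25% of the tested genes with a window held one. HELLS had 2 in 1 window, and UHRF1 had 1 in each of 2 windows. None of the octamers was found in these windows of EED, JARID2, DNMT3A, DNMT3B or TET1, which says only that those letters are absent there. The DNMT3B window, at 32779602 to 32779901 on chromosome 20, lies inside the span that GENCODE gives for the gene. That span begins at 32762385, and the sequence around its beginning was not searched. The stretches below read 5′ to 3′ on the gene's own strand, with the octamer in capitals. CDCA7 and UHRF1, which work with HELLS and DNMT1, are added because their transcripts are set beside those of HELLS and DNMT1 further on.
EZH2 at chr7:148884272-148884301, minus strand: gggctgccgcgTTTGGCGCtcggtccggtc
EZH1 at chr17:42745137-42745166, minus strand: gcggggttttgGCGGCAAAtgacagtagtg
SUZ12 at chr17:31936807-31936836, plus strand: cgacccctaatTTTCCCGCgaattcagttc
DNMT1 at chr19:10194937-10194966, minus strand: catcggtttccGCGCGAAAagccggggcgc
HELLS at chr10:94545701-94545798, plus strand: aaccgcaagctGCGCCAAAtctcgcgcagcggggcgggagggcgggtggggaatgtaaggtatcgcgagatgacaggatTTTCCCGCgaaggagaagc
CDCA7 at chr2:173354796-173354825, plus strand: tgtgtcccaacGCGGGAAAgacagcccgag
UHRF1 at chr19:4909476-4909505, plus strand: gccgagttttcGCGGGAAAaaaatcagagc
UHRF1, second window, at chr19:4909973-4910002, plus strand: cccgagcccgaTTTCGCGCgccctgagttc
The octamer began 1 base past the start in EZH2, 2 bases before it in DNMT1, 76 and 8 bases before it in HELLS, 14 bases before the first and 160 before the second listed start in UHRF1, 65 bases before it in CDCA7, 115 bases before it in EZH1 and 189 bases before it in SUZ12. The RefSeq starts of DNMT1 and HELLS lie inside the longer spans that GENCODE gives for these genes further on. A match is a description of the letters and not a shown binding site, and it was not tested as a cause of any change below. Of the 5 members with an octamer, EZH1 and HELLS were higher and SUZ12 was lower under THZ1 in both lines, relative to most transcripts. EZH2 was called higher in WERI and not called in Y79, and DNMT1 was called in neither line.

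Total counts ranged from 29677575 to 37433574 per library. All 12 retinoblastoma and photoreceptor markers examined had counts in every group, at a summed level of 2806 to 3757 CPM (counts-per-million). Markers of glia and pigment epithelium summed to 5.80 to 46.2 CPM, with S100B and TYR at 0 in every group. Stromal and blood markers, in WERI mostly COL1A1, summed to 25.8 to 29.6 CPM in WERI DMSO and 57.0 to 57.8 in WERI THZ1, and to 3.09 to 4.52 in Y79 DMSO and 7.22 to 8.36 in Y79 THZ1. Their part in the results was not tested. RB1 was near absent in WERI, with 0, 0 and 4 counts in DMSO and 5, 0 and 4 in THZ1, and had 1785 to 3133 counts in the Y79 libraries. In Y79, RB1 averaged 49.7 CPM in DMSO and 102 CPM in THZ1, with no overlap of the groups. By the edgeR test and TMM scaling explained below, the log2 fold change was 1.03 (adjusted p = 0.000123). With mitochondrial mRNA as the reference it was -0.68. MYCN, the oncogene named in the series title, averaged 332 CPM in WERI DMSO and 1233 CPM in Y79 DMSO. Replicate 2 of Y79 THZ1 stood apart from its 2 replicates, with chi-square values per degree of freedom of 69.9 and 71.1 against 7.51 to 13.4 for the other 10 pairs of replicates, and results that rest on it are given with and without it. The share of counts from the 13 mitochondrially encoded mRNAs was 3.74% to 4.46% in DMSO and 8.44% to 11.2% in THZ1.

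Levels are CPM scaled by TMM factors, which set the bulk of the genes as the reference, so a change is a change relative to most other transcripts. Errors of means are SD with n = 3 cultures, and those of log2 fold changes are SE. Adjusted p comes from edgeR's quasi-likelihood test with Benjamini-Hochberg adjustment over all tested features, and values under 0.05 were called. In bulk RNA, fewer cells in a given state and less RNA per cell cannot be told apart.

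Under THZ1, EZH1 and HELLS rose in both lines relative to most transcripts and SUZ12, TET1 and DNMT3A fell in both. When mitochondrial mRNA was the reference, all 10 members were lower, as were most genes. With that reference, 13328 of all 14865 tested genes were called lower in WERI and 12188 in Y79. EZH2 was called higher in WERI, and the difference between the lines was not called for it. JARID2 fell in WERI and rose in Y79. EED, DNMT1 and DNMT3B were called in neither line. In WERI 3 members were called higher and 4 lower, where 64.8% of all tested genes were called, 27.7% higher and 37.2% lower. In Y79 3 were called higher and 3 lower, where 68.3% of all genes were called, 29.9% higher and 38.5% lower. Scaled by library size alone, 1 was higher and 7 lower in WERI, and 2 higher and 8 lower in Y79. On that scale, 2221 of all 14865 tested genes were higher and 7961 lower in WERI, and 2175 and 8334 in Y79. With 7 and 6 of 10 called on the TMM scale, the members' shares lay near those of all genes. Their median log2 fold change was -0.06 in WERI and -0.02 in Y79, beside -0.11 and -0.09 over all genes. Their median absolute change was 0.35 in WERI and 0.22 in Y79, beside 0.66 and 0.77 over all genes. The genes were not matched for expression level, so these medians do not show that members moved less than comparable genes.

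**Figure D1:**
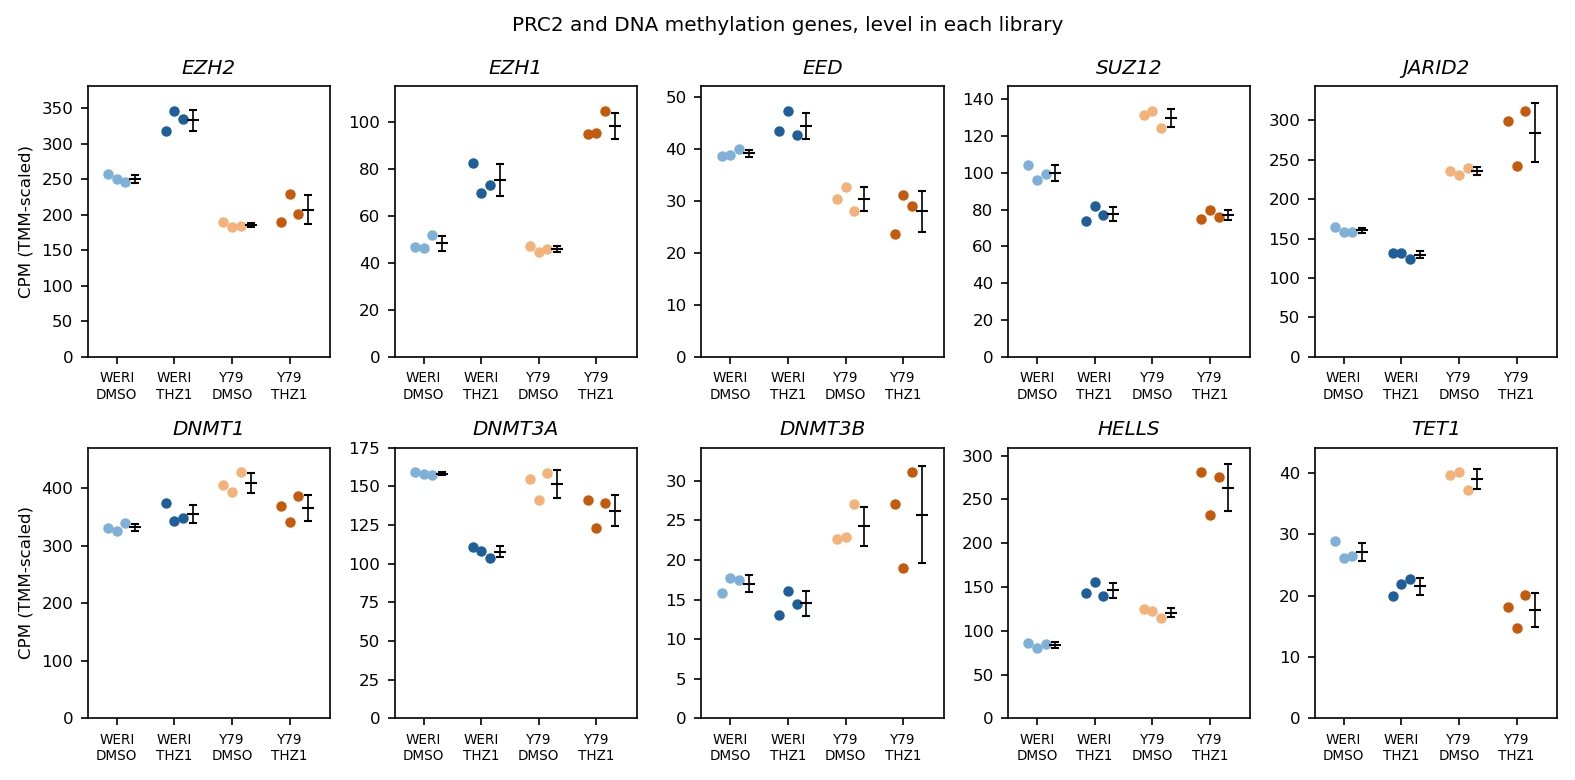
Level of each of the 10 members in CPM scaled by TMM (vertical axis, from 0) in the 12 libraries, 1 panel per gene. Points are libraries, 3 per group, and bars are the group mean ± SD; EZH1 and HELLS are higher in both THZ1 groups, SUZ12 and TET1 are lower in both, and JARID2 goes down in WERI and up in Y79.

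EZH2, the main histone H3 lysine 27 methyltransferase (ENSG00000106462, chromosome 7, 148807383 to 148884321 in GENCODE v29 on GRCh38), stood at 257, 249.99 and 246 CPM in the WERI DMSO libraries and at 318, 347 and 335 in WERI THZ1. Every treated WERI library lay above every control, and the log2 fold change was 0.41 ± 0.073 (adjusted p = 0.00025). Y79 had less EZH2, with 189, 183 and 184 CPM in DMSO and 190.1, 229.9 and 201 in THZ1. The Y79 groups did not overlap, but the change of 0.16 ± 0.074 was not called (adjusted p = 0.0769), and without replicate 2, the highest treated library, it was 0.05. It was called higher with RLE factors (0.26, adjusted p = 0.00894), with DESeq2 (0.26), with annotated genes only (0.27) and without replicate 1 of Y79 THZ1 (0.20, adjusted p = 0.0454). The difference in response, Y79 minus WERI, was -0.25 and was not called (adjusted p = 0.115), although it was called once replicate 2 of Y79 THZ1 was left out.

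EZH1, the second catalytic subunit (ENSG00000108799, chromosome 17, 42700275 to 42745049), had about the same level in the DMSO cultures of both lines, 46.8, 46.3 and 52.0 CPM in WERI and 47.1, 44.5 and 45.8 in Y79. THZ1 libraries held 82.8, 69.9 and 73.3 CPM in WERI and 95.0, 95.7 and 105 in Y79, all above all controls. The log2 fold changes were 0.64 ± 0.079 in WERI (adjusted p = 7.84e-06) and 1.11 ± 0.080 in Y79 (adjusted p = 2.82e-08). The rise was larger in Y79 by 0.47 ± 0.112 (adjusted p = 0.0104).

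The balance between the 2 enzymes can be read within each library, without a scaling factor, as the ratio of EZH2 to EZH1 per exon length. It was 8.04 ± 0.649 in WERI DMSO and 6.88 ± 0.884 in WERI THZ1, with overlapping libraries and a two-sided exact permutation p of 0.2. In Y79 it was 6.26 ± 0.078 in DMSO and 3.26 ± 0.402 in THZ1, with no overlap. The log2 difference in Y79 was -0.95, and the exact permutation p of 0.1 is the smallest that 3 against 3 libraries allow. EZH2 thus remained the more abundant of the pair in every library, with a narrower margin in treated Y79 cells.

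EED, the subunit that reads the lysine 27 mark (ENSG00000074266, chromosome 11, 86244544 to 86278813), had the lowest level per exon length of the PRC2 core. WERI held 38.7, 39.0 and 39.99 CPM in DMSO and 43.4, 47.5 and 42.8 in THZ1. The WERI groups did not overlap, but the log2 fold change of 0.19 ± 0.098 was not called (adjusted p = 0.120). Y79 held 30.5, 32.6 and 28.2 CPM in DMSO and 23.7, 31.2 and 29.1 in THZ1. These groups overlapped, with a log2 fold change of -0.12 ± 0.100 (adjusted p = 0.310). Without replicate 2 of Y79 THZ1, the highest of the treated libraries, the Y79 change was called at -0.24 (adjusted p = 0.0335).

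SUZ12, the scaffold that joins the core to its cofactors (ENSG00000178691, chromosome 17, 31937018 to 32001045), fell in both lines. In WERI it went from 104, 96.1 and 99.1 CPM to 74.0, 81.7 and 76.9, with a log2 fold change of -0.37 ± 0.064 (adjusted p = 0.000206). In Y79 it went from 131, 134 and 124 CPM to 74.9, 79.8 and 76.1, a log2 fold change of -0.75 ± 0.065 (adjusted p = 1.61e-07). No treated library reached a control in either line. The fall was deeper in Y79 by 0.39 on the log2 scale (-0.39 ± 0.091, adjusted p = 0.00939), and the treated groups stood at 77.5 ± 3.88 CPM in WERI and 77.0 ± 2.54 CPM in Y79. The annotation lists the copies SUZ12P1, EZH2P1 and TET1P1, which have no row in the table used here. The rule for counting reads shared with them was not stated, so the levels of SUZ12, EZH2 and TET1 are uncertain to that extent.

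Since EZH2 and SUZ12 sit in 1 complex, their ratio per exon length is of interest, although this pair was picked after its values were seen and is given with no test. SUZ12 stood at 0.275 of EZH2 in WERI DMSO, 0.161 in WERI THZ1, 0.483 in Y79 DMSO and 0.258 in Y79 THZ1. In both lines the scaffold transcript was scarcer beside the enzyme transcript after the drug.

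JARID2, a cofactor that helps PRC2 find its sites (ENSG00000008083, chromosome 6, 15246296 to 15522040), was the member called in opposite directions. WERI libraries fell from 164, 158 and 159 CPM in DMSO to 132, 132 and 125 in THZ1, a log2 fold change of -0.31 ± 0.083 (adjusted p = 0.00536). Y79 libraries held 236, 231 and 240.2 CPM in DMSO and 299, 242 and 312 in THZ1, a log2 fold change of 0.27 ± 0.083 (adjusted p = 0.0108). Replicate 2 was the low treated Y79 library, close above the controls. The change in Y79 minus that in WERI was 0.58 ± 0.118 (adjusted p = 0.004). The Y79 rise was no longer called when each line was fitted alone or when replicate 1 or 3 of Y79 THZ1 was left out, and it turned to -0.28 with library size as the only scaling.

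DNMT1, the maintenance methyltransferase (ENSG00000130816, chromosome 19, 10133345 to 10231286), had the highest mean CPM of the members in every group and was not called in either line. WERI held 331, 326 and 339 CPM in DMSO and 374, 343 and 349 in THZ1, a log2 fold change of 0.10 ± 0.069 (adjusted p = 0.237). Y79 held 406, 394 and 428 CPM in DMSO and 369.9, 342 and 386 in THZ1, a log2 change of -0.16 ± 0.069 (adjusted p = 0.055). The groups of each line stood apart by a narrow gap, upward in WERI and downward in Y79, and the difference of -0.26 between the lines was not called (adjusted p = 0.0823). Without replicate 2 of Y79 THZ1, the lowest treated library, the Y79 change was called at -0.15 (adjusted p = 0.0208). It was also called lower with library size only, with mitochondrial scaling and with no filter on low counts. The same held without replicate 2 of WERI THZ1 and without replicate 3 of Y79 THZ1. In WERI, DNMT1 was called higher with RLE factors, with DESeq2 and with annotated genes only, and it changed sign with library size only and with mitochondrial scaling.

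UHRF1, the protein that brings DNMT1 to newly replicated DNA, fell steeply where DNMT1 was not called on the TMM scale with all libraries. It went from 276, 286 and 274 CPM to 72.7, 67.4 and 70.6 in WERI, a log2 fold change of -1.99 ± 0.061 (adjusted p = 6.46e-11). In Y79 it went from 346, 349 and 357 CPM to 82.0, 81.3 and 86.3, a log2 change of -2.07 ± 0.061 (adjusted p = 1.61e-11). The 6 treated libraries lay far below the 6 controls, and the fall was seen under every scaling tried.

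DNMT3A, a de novo methyltransferase (ENSG00000119772, chromosome 2, 25227855 to 25342590), stood at 159, 158 and 157 CPM in WERI DMSO and at 111, 108 and 104 in WERI THZ1. The fall of -0.55 ± 0.070 (adjusted p = 9.52e-06) was the largest among the members in that line. In Y79 it stood at 155, 141 and 159 CPM in DMSO and at 141, 123 and 139 in THZ1, with -0.17 ± 0.070 (adjusted p = 0.0431). The highest treated library lay level with the lowest control. The Y79 call was lost with RLE factors, with DESeq2, with annotated genes alone, with each line fitted alone, and without 1 of several single libraries. The fall was smaller in Y79 by 0.38 ± 0.099 (adjusted p = 0.0164), a difference that was lost without replicate 3 of WERI THZ1 or replicate 2 of Y79 DMSO.

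DNMT3B, the other de novo enzyme (ENSG00000088305, chromosome 20, 32762385 to 32809356), was scarce. WERI held 15.8, 17.7 and 17.5 CPM in DMSO and 13.01, 16.1 and 14.5 in THZ1, with overlapping groups and a log2 fold change of -0.23 ± 0.155 (adjusted p = 0.224). Without replicate 2 of Y79 THZ1, which enters the shared estimate of spread, the WERI change was called at -0.26 (adjusted p = 0.0389). Y79 held 22.7, 22.9 and 27.1 CPM in DMSO and 27.1, 19.0 and 31.1 in THZ1, again overlapping, with 0.09 ± 0.152 (adjusted p = 0.645). Its SE was the widest of the 10. The ratio of DNMT3B to DNMT3A per exon length was 0.279 ± 0.0189 in WERI DMSO, 0.351 ± 0.0423 in WERI THZ1, 0.415 ± 0.0324 in Y79 DMSO and 0.494 ± 0.0899 in Y79 THZ1. Its log2 differences were 0.32 in WERI (exact permutation p = 0.1, the smallest possible) and 0.24 in Y79 (exact permutation p = 0.3).

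HELLS, an SNF2-type remodeller needed for normal DNA methylation (ENSG00000119969, chromosome 10, 94501434 to 94613905), rose most among the members in WERI and, with EZH1, in Y79, where the rises of the pair differed by less than their SE. WERI went from 86.1, 80.0 and 85.4 CPM to 143, 156 and 139.6, a log2 fold change of 0.80 ± 0.081 (adjusted p = 9.91e-07). Y79 went from 125, 123 and 115 CPM to 281, 232 and 276, a log2 fold change of 1.13 ± 0.081 (adjusted p = 2.67e-08). All treated libraries stood above all controls of their line, and the difference between the lines of 0.32 was not called (adjusted p = 0.0641). That difference was called with RLE factors, with DESeq2, with annotated genes only and without replicate 2 of WERI THZ1. It was also called, at 0.40 (adjusted p = 0.00075), without replicate 2 of Y79 THZ1. AL138759.1, an annotated sense transcript without a row in the table, shares 438 of the gene's exon bases (4.32%).

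CDCA7, the zinc finger protein that activates HELLS on chromatin, rose alongside it. It went from 40.9, 39.2 and 41.0 CPM to 98.4, 99.4 and 99.8 in WERI, and from 91.9, 98.2 and 91.5 to 236, 252 and 245 in Y79. The log2 fold changes were 1.30 ± 0.059 (adjusted p = 9.24e-10) and 1.38 ± 0.059 (adjusted p = 2.46e-10). The replicates were tight and the groups far apart. Both parts of the HELLS and CDCA7 remodeller were thus higher relative to most transcripts, with UHRF1 lower: HELLS per exon length stood at 0.153 of UHRF1 in WERI DMSO, 1.06 in WERI THZ1, 0.175 in Y79 DMSO and 1.60 in Y79 THZ1. That pair, too, was picked after its values were seen and is given with no test.

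TET1, the methylcytosine oxidase (ENSG00000138336, chromosome 10, 68560656 to 68694482), fell in both lines and fell more in Y79. WERI held 28.9, 26.1 and 26.4 CPM in DMSO and 19.9, 21.8 and 22.7 in THZ1, a log2 fold change of -0.34 ± 0.108 (adjusted p = 0.0153). Y79 held 39.7, 40.1 and 37.1 CPM in DMSO and 18.2, 14.7 and 20.2 in THZ1, a log2 fold change of -1.14 ± 0.109 (adjusted p = 5.07e-07). No treated library reached a control. The difference of -0.80 ± 0.153 between the lines was the largest of any member (adjusted p = 0.0027). The WERI call was lost with RLE factors, with annotated genes alone, and without replicate 1 of WERI DMSO or of WERI THZ1.

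**Figure D2:**
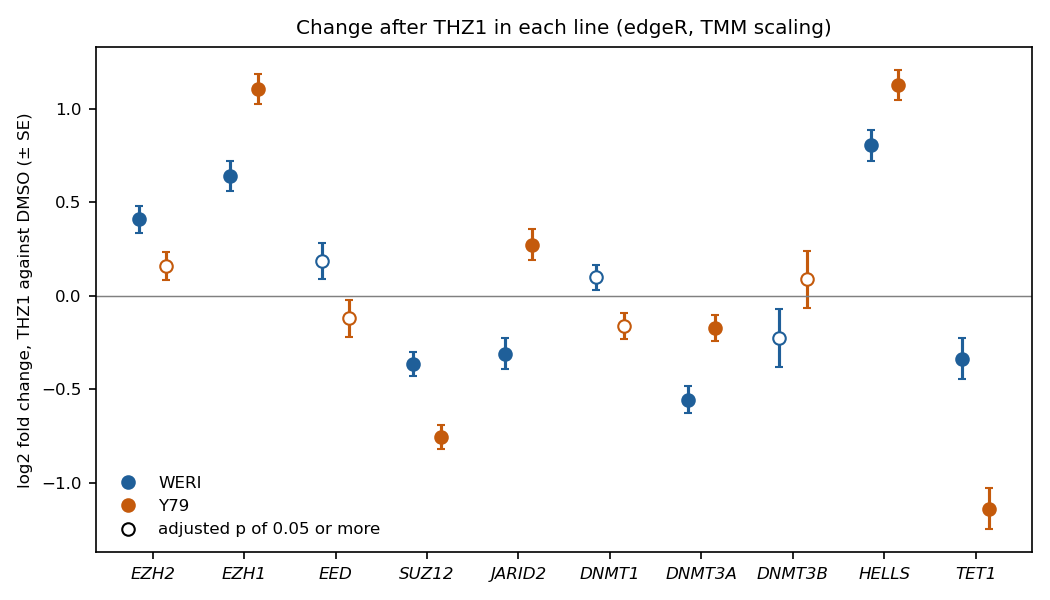
Log2 fold change of THZ1 against DMSO for the 10 members in WERI and in Y79 (vertical axis, log2 units, TMM scaling), with bars of ± SE from the edgeR fit to all 12 libraries and open circles at an adjusted p of 0.05 or more. HELLS and EZH1 lie above 0 in both lines at 0.64 to 1.13, TET1 lies at -1.14 in Y79 and -0.34 in WERI, and JARID2 lies on opposite sides of 0.

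The response differed between the lines for 5 members, where 22% of all tested genes were called, 8.74% with a higher and 13.2% with a lower change in Y79. JARID2, EZH1 and DNMT3A had the higher change in Y79, and TET1 and SUZ12 the lower. Without replicate 2 of Y79 THZ1, 2161 of all 15111 tested genes had a higher and 3029 a lower change in Y79. All 10 members were then called, 5 in each direction. EZH1, JARID2 and DNMT3A lost that call with library size as the only scaling, and SUZ12 lost it with mitochondrial scaling.

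The scale on which a change is read mattered for these genes. TMM factors were 1.25 to 1.27 in WERI DMSO, 0.912 to 0.944 in WERI THZ1, 1.12 to 1.13 in Y79 DMSO and 0.696 to 0.801 in Y79 THZ1. Under library size scaling, the median over all genes was -0.56 in WERI and -0.65 in Y79. On that scale HELLS stood at 0.36 and 0.57 and EZH1 at 0.19 and 0.54, with the WERI value of EZH1 no longer called (adjusted p = 0.0949), while EZH2 stood at -0.04 and -0.41. With the mitochondrially encoded mRNAs as the reference, the median over all genes was -2.01 and -1.80. Of all 14865 tested genes, 13328 were then called lower in WERI and 12188 in Y79. All 10 members were lower in both lines, HELLS the least at -1.09 and -0.59 and TET1 at -2.23 and -2.85. The rises of EZH1, EZH2 and HELLS are therefore rises against other nuclear transcripts, and the data hold no measure of transcripts per cell.

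**Figure D3:**
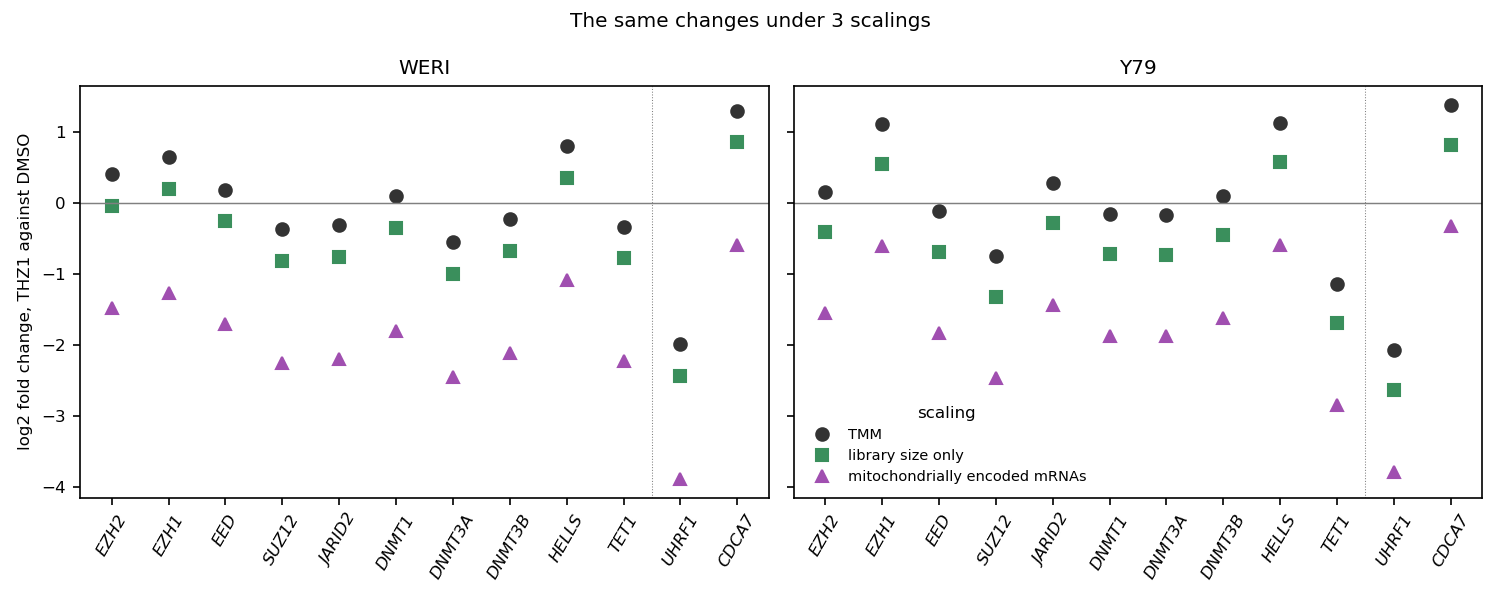
Log2 fold change of THZ1 against DMSO (vertical axis, log2 units) for the 10 members and, right of the dotted line, UHRF1 and CDCA7, with TMM factors (circles), library size only (squares) and mitochondrial mRNA as the reference (triangles). Every gene shifts down from scale to scale, and with the mitochondrial reference the members lie between -0.59 and -2.85.

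Before treatment, the lines already differed in 8 of the 10 members, where 64.9% of all genes were called, 32.3% higher and 32.6% lower in Y79. JARID2 (log2 difference 0.56), HELLS (0.53), TET1 (0.52), DNMT3B (0.51), SUZ12 (0.38) and DNMT1 (0.30) were higher in Y79 DMSO. EZH2 (-0.44) and EED (-0.37) were lower. EZH1 (-0.08, adjusted p = 0.404) and DNMT3A (-0.06, adjusted p = 0.466) were not called, and their libraries overlapped. On library size alone, 4 were higher and 3 lower, and with mitochondrial scaling 1 was higher and 4 lower. Over all 14865 tested genes, 3641 were higher and 5732 lower on library size alone, and 2706 and 6322 with mitochondrial scaling. On the TMM scale the enzyme and the mark reader of PRC2 were thus lower in the line with RB1 transcripts and higher MYCN, and its scaffold and cofactor higher. With 1 line of each kind, nothing links these differences to RB1 or to MYCN. On the TMM scale, a lean towards Y79 was not particular to the members, whose median log2 difference was 0.34. Among the lists of related genes described further on, 12 of 12 replication fork genes were higher in Y79 DMSO (median 0.41). DNA methylation partners had 12 of 18 higher and 3 lower (0.35), and lysine 9 genes 6 of 10 and 1 (0.41). PRC2 partners had 5 of 9 and 3 (0.19), PRC1 genes 6 of 19 and 5 (-0.002), and Polycomb-opposing genes 3 of 14 and 2 (0.05). 

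After THZ1 the lines differed in 8 members again, where 67.1% of all genes were called, 31% higher and 36.1% lower. JARID2 (1.14), HELLS (0.85), DNMT3B (0.83), EZH1 (0.39) and DNMT3A (0.32) were higher in treated Y79 cells, and EZH2 (-0.69), EED (-0.67) and TET1 (-0.28, adjusted p = 0.0396) lower. Scaled by library size alone, 3 were higher and 5 lower, where 3084 of all 14865 tested genes were higher and 6997 lower. The TET1 groups overlapped, and its call was lost without replicate 2 of Y79 THZ1 (-0.19, adjusted p = 0.0912), without any 1 of 5 other libraries, with annotated genes only and with the replicate block (adjusted p = 0.05002). DNMT1 (0.04) and SUZ12 (-0.01) were no longer called. The comparisons of the lines and those of the drug share libraries, so their values are set side by side and not correlated.

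Levels of different genes can be compared only per length, here as CPM per kilobase of merged exons. In WERI DMSO the order was EZH2 at 55.5, DNMT1 at 33.9, JARID2 at 26.7, SUZ12 at 15.2, DNMT3A at 13.2, HELLS at 8.26, EZH1 at 6.92, EED at 5.59, DNMT3B at 3.67 and TET1 at 2.92. In Y79 DMSO, DNMT1 at 41.8 ± 1.79, EZH2 at 41.0 ± 0.721 and JARID2 at 39.2 ± 0.765 shared the top, and the first 2 did not differ beyond their spread. Treated Y79 cells had JARID2 at 47.3 ± 6.18 and EZH2 at 45.8 ± 4.54 on top, also within their spread, then DNMT1 at 37.4 and HELLS at 25.9. HELLS moved from the sixth place to the fourth in both lines, and TET1 had the lowest mean in each of the 4 groups, at 1.90 in Y79 THZ1. In Y79 DMSO it did not differ from EED beyond their spread, at 4.197 ± 0.173 and 4.34 ± 0.319. Merged exon lengths count all annotated exons, so a gene with long rarely used exons may come out low. Exon use was not measured, and the longest merged lengths among the members were those of DNMT3A (12020 bases) and HELLS (10148 bases).

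**Figure D4:**
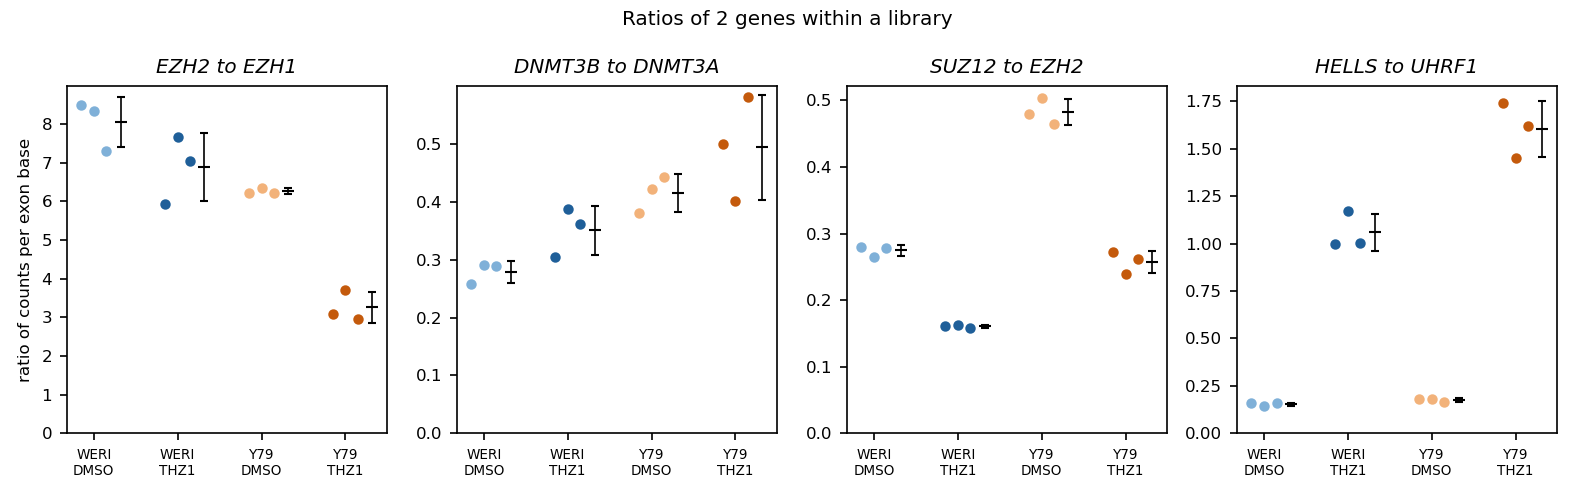
Ratios between pairs of transcripts within each library, per exon length, in the 4 groups. Points are libraries and bars are the group mean ± SD; EZH2 to EZH1 averages 6.26 in Y79 DMSO and 3.26 in Y79 THZ1, and HELLS to UHRF1 stands far higher in both THZ1 groups (1.06 and 1.60) than in the DMSO groups.

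Other genes of the silencing pathways were read from 6 lists. Their counts on the TMM scale stand beside 27.7% higher and 37.2% lower over all tested genes in WERI, 29.9% and 38.5% in Y79, and medians of -0.11 and -0.09. Their counts on library size alone stand beside 2221 of 14865 tested genes higher and 7961 lower in WERI. In Y79 those counts were 2175 and 8334, and the medians were -0.56 in WERI and -0.65 in Y79. No list was tested against other genes. Of the 9 PRC2 partner genes tested, 3 were higher and 3 lower in WERI, with a median log2 fold change of 0.07, and 5 were higher and 2 lower in Y79, with a median of 0.16. PHF1, a PRC2 subunit that binds chromatin, rose from 50.9 to 78.8 CPM in WERI (0.63, adjusted p = 2.66e-05), and in Y79 from 41.1 to 80.2 (0.96, adjusted p = 3.51e-07). LCORL, which gives rise to another PRC2 accessory protein, fell from 85.1 to 47.8 CPM in WERI (-0.83), and AEBP2, a cofactor of the JARID2 form of the complex, fell from 48.0 to 36.9 in Y79 (-0.38). Under library size scaling, the list gave 1 higher and 6 lower in WERI and 1 higher and 5 lower in Y79, with medians of -0.38 and -0.40.

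PRC1, the complex that binds the lysine 27 mark and ubiquitinates histone H2A, had 6 of 19 genes higher and 7 lower in WERI, and 6 higher and 8 lower in Y79. Its medians were -0.11 and -0.07, near those of all genes. PHC2, a polyhomeotic subunit, fell in WERI from 138 to 51.3 CPM (-1.43), and in Y79 from 138 to 59.9 (-1.21). PCGF2 rose from 28.0 to 51.2 CPM in WERI (0.87), and PHC3, a relative of PHC2, rose from 53.7 to 108 CPM in Y79 (1.01). On library size alone, 2 were higher and 12 lower in WERI, and 4 higher and 14 lower in Y79.

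Of 14 genes of proteins that oppose Polycomb, 2 were higher and 8 lower in WERI (median -0.53), and 4 higher and 9 lower in Y79 (median -0.39). NSD1, a methyltransferase for lysine 36 of histone H3, fell from 87.1 to 26.8 CPM in WERI (-1.70), and its relative NSD2 rose from 388 to 509 (0.39). In Y79, ASXL3, at a low level, fell from 2.06 to 0.419 CPM (-2.27 ± 0.737) and ASH1L rose from 156 to 234 (0.59). Scaled by library size alone, none was higher, and 10 and 11 were lower.

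Of the 18 DNA methylation partner genes, 5 were higher and 12 lower in WERI (median -0.44), and 6 higher and 12 lower in Y79 (median -0.63). CDCA7 and UHRF1 have been described. DNMT3L, a cofactor of the de novo enzymes, rose from 1.85 to 5.46 CPM in WERI (1.57), and ZBTB38, a reader of methylated DNA, fell from 12.4 to 2.22 CPM in Y79 (-2.46). Among 10 genes of histone H3 lysine 9 methylation, 3 were higher and 6 lower in WERI (median -0.38), and 3 higher and 5 lower in Y79 (median -0.27). The methyltransferase gene SUV39H1 fell in WERI from 20.9 to 5.79 CPM (-1.85), and in Y79 from 20.5 to 3.96 (-2.37). CBX1, which encodes a protein that binds this mark, rose from 191 to 465 CPM (1.28) and from 281 to 516 (0.88). Under library size scaling, the DNA methylation partners gave 2 higher and 12 lower in WERI and 2 and 13 in Y79, and the lysine 9 genes 1 and 7, and 1 and 8.

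The 12 replication fork genes serve as a check of S phase transcripts, since DNMT1, UHRF1 and HELLS act around the fork. In WERI 4 were higher and 8 lower (median -0.37), and in Y79 3 were higher and 7 lower (median -0.37). RFC3, a clamp loader subunit, rose in WERI from 44.5 to 81.4 CPM (0.87), and in Y79 from 84.2 to 153 (0.86). RFC4, of the same loader, fell from 47.8 to 17.6 CPM in WERI (-1.44), and PCNA, the clamp itself, fell from 325 to 97.8 CPM in Y79 (-1.73). Of the 10 fork genes with a promoter window, 9 held at least 1 of the E2F-type octamers. On library size alone, 1 fork gene was higher and 9 were lower in WERI, and 1 and 10 in Y79. With mitochondrial mRNA as the reference, none of the genes in the 6 lists was called higher in either line. Of all 14865 tested genes, 111 were then higher in WERI and 283 in Y79.

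**Figure D5:**
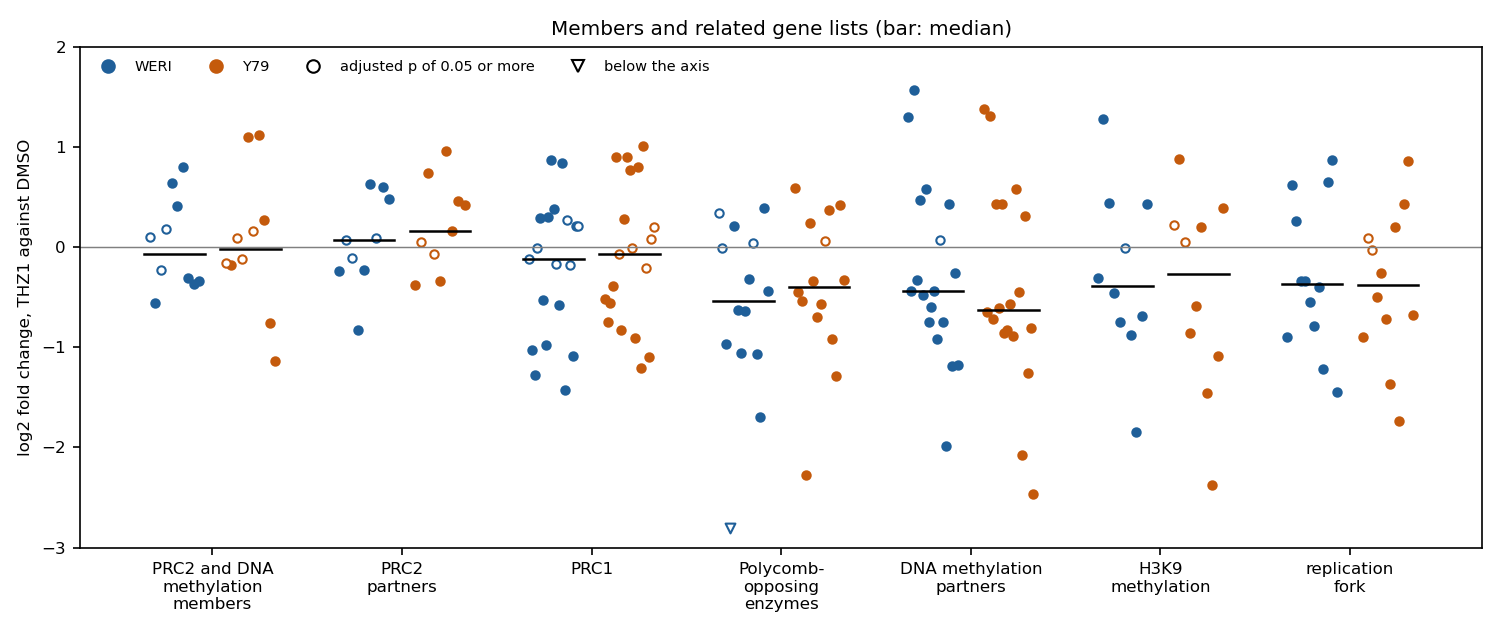
Log2 fold change of THZ1 against DMSO (vertical axis, log2 units, TMM scaling) of each gene among the 10 members and the 6 lists of related genes, in WERI and Y79. Points are genes (open at an adjusted p of 0.05 or more, a triangle for 1 value below the axis) and bars are medians; the members and both Polycomb complexes centre near 0, and the DNA methylation partners centre at -0.44 and -0.63.

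Across the 12 libraries, the members formed pairs that varied alike, which describes the 4 groups as much as the genes since the libraries share line and treatment. Pearson's r of log2 CPM was 0.93 for SUZ12 with TET1 and for JARID2 with DNMT3B, 0.89 for EZH2 with EED and 0.88 for EZH1 with HELLS, and it was -0.95 for EED with JARID2. Among 10120 expressed genes, those closest to EZH2 were ACTR3 (0.991), HMGB2 (0.990) and SNAP25 (0.990). CEP85L (0.992), CPSF6 (0.992) and SREK1 (0.991) were closest to HELLS, and HIF1AN (0.983), DLG5 (0.973) and RLF (0.971) to DNMT3A. None of the other members was among these nearest genes.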

How the data were processed

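RNA was sequenced from 12 cultures, 3 in each of 4 groups. Per the labels' protocols, the NEBNext Ultra RNA kit was used, a protocol without strand information. The authors deposited whole-number counts per gene without normalization, and the submitters' processing notes name Cufflinks and GRCh38. The aligner and the counting rule (not given in the sources used here) decide how reads of overlapping genes were assigned. Groups were taken from the sample titles.

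Counts were fitted in R 4.3.3 with edgeR 4.0.16 on the whole table: filterByExpr, which left 14865 annotated genes and 3979 unannotated loci, TMM factors, robust glmQLFit with 1 mean per group and 8 residual degrees of freedom, and two-sided glmQLFTest. SE was derived from the F statistic, as the size of the log2 change over the root of F. The scripts were tested on simulated data. Ratios of 2 genes within libraries were compared by two-sided exact permutation tests. Alternatives were RLE factors, library size only, mitochondrial mRNA scaling, no filter, DESeq2 1.42.0, annotated genes only, each line alone, the replicate number as a block, and leaving out each library. Exon lengths and positions are from GENCODE v29. Tables were joined in Python 3.11.15 with pandas 2.3.3 and drawn with matplotlib 3.10.9.

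The members and the gene lists were chosen with earlier results of these data known. The genes named are the members, RB1, MYCN and CDK7 as checks, UHRF1 and CDCA7, the called gene with the largest rise and the largest fall in each list and THZ1 comparison, and the 3 genes most like EZH2, HELLS and DNMT3A in an average log2 CPM range of at least 3. CDK7, the kinase THZ1 binds, stood at 11.1 CPM in WERI DMSO and 3.00 in WERI THZ1, and at 19.3 and 5.42 in Y79.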

Additional observations from a re-analysis of the deposited data

Results flagged for a closer look

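For 13 of the named genes the response to THZ1 differed between the lines by the edgeR test of the difference itself (Y79 minus WERI, log2 scale, adjusted over all tested features, n = 3 per group), which was called for 22% of all tested genes. Genes from the related lists were named for a large called change within a line, read from the same libraries. Such a choice can favour a difference between the lines, so the 13 cannot be weighed against the 22%. Among the members the differences were 0.58 for JARID2 (adjusted p = 0.004), 0.47 for EZH1 (0.0104), 0.38 for DNMT3A (0.0164), -0.39 for SUZ12 (0.00939) and -0.80 for TET1 (0.0027).

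Among the related genes named, LCORL and RFC4 each differed by 0.76 (adjusted p = 0.0134 and 0.0025). LCORL stood at -0.83 in WERI and -0.07 in Y79, and RFC4 at -1.44 and -0.68. PHC3 differed by 0.73 (0.0245), with 0.27 in WERI and 1.01 in Y79. ZBTB38 differed by -1.29 (0.0484), with -1.17 in WERI and -2.46 in Y79. PCNA differed by -0.52 (0.0259), with -1.21 and -1.73. SUV39H1 differed by -0.52 (0.0368), with -1.85 and -2.37. CBX1 differed by -0.40 (0.00791), with 1.28 and 0.88. The MYCN gene differed by -0.40 (0.00877), with -0.39 in WERI and -0.79 in Y79. With mitochondrial scaling the differences of ZBTB38 (adjusted p = 0.129), PCNA (0.224), SUV39H1 (0.294), CBX1 (0.314) and MYCN (0.315) were no longer called, and with library size as the only scaling those of LCORL (0.0695) and PHC3 (0.102) were not. Among the members, EZH1, JARID2 and DNMT3A lost the call with library size only and SUZ12 with mitochondrial scaling.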

How the results depend on the processing

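Of 970 values of single members under the alternatives, 866 kept their direction and their side of the threshold, 40 passed it only under the alternative, 41 no longer passed it and 23 changed sign. With library size as the only scaling, DNMT1 turned to -0.35 in WERI and to -0.23 between the treated lines, EED to -0.26 and EZH2 to -0.040 in WERI, and DNMT3B to -0.46, EZH2 to -0.41 and JARID2 to -0.28 in Y79. Counts of members called higher and lower under THZ1 were then 1 and 7 in WERI, with 8 lower in Y79, 0 and 5 for the difference between the lines, and 3 and 5 between the treated lines. Over all 14865 tested genes the counts were 2221 and 7961 in WERI, with 8334 lower in Y79. They were 740 and 2696 for the difference, and 3084 and 6997 between the treated lines. With mitochondrial scaling, values turned to -1.80 (DNMT1), -1.71 (EED), -1.26 (EZH1), -1.49 (EZH2) and -1.09 (HELLS) in WERI, to -1.62 (DNMT3B), -0.61 (EZH1), -1.55 (EZH2), -0.59 (HELLS) and -1.44 (JARID2) in Y79, and to -0.047 for DNMT1 between the treated lines. Then 0 members were higher and 10 lower in each line, 1 had a lower change in Y79, and 1 was higher and 4 lower between the DMSO groups. Over all 14865 tested genes, 111 were higher and 13328 lower in WERI, and 283 and 12188 in Y79. A lower change in Y79 was called for 713, and 2706 were higher and 6322 lower between the DMSO groups. In WERI 5 members were called higher with RLE factors, with DESeq2 and with annotated genes only, DNMT1 and EED being added, and EZH2 in Y79 was called higher with each of these. Over all 14865 tested genes, 4537, 4737 and 4615 were then higher in WERI. SUZ12 between the treated lines was 0.0096 with RLE factors, 0.0088 with DESeq2 and 0.017 with annotated genes only.

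Leaving out 1 library at a time gave 3 members higher and 3 to 5 lower in WERI, 2 to 3 higher and 2 to 5 lower in Y79, 2 to 5 with a higher and 2 to 5 with a lower change in Y79, 6 higher and 2 lower between the DMSO groups, and 5 higher and 2 to 3 lower between the treated lines. Over the 15049 to 15111 genes tested in those fits, 3651 to 4350 were higher and 5134 to 6122 lower in WERI. In Y79, 4047 to 4388 were higher and 5450 to 6001 lower. A higher change in Y79 was called for 889 to 2161 genes and a lower change for 1437 to 3029. Between the DMSO groups 4265 to 5227 were higher and 4457 to 5500 lower, and between the treated lines 4223 to 4628 and 5044 to 5763. The counts of 5 lower in WERI and in Y79 and of 5 and 5 for the difference came without replicate 2 of Y79 THZ1. In that fit, of 15111 tested genes, 6122 were lower in WERI and 6001 lower in Y79. A higher change in Y79 was called for 2161 of them and a lower change for 3029. DNMT3B in Y79 ranged from -0.080 to 0.23 and SUZ12 between the treated lines from -0.058 to 0.016. The log2 difference of EZH2 to EZH1 ranged in WERI from -0.31 to -0.13 and in Y79 from -1.05 to -0.89, and that of DNMT3B to DNMT3A from 0.25 to 0.42 and from 0.11 to 0.38. Same-numbered libraries of a line did not deviate together (correlations of -0.0438 to 0.0046 over 6 pairs, beside -0.0577 to 0.0785 over 12 pairs with different numbers). No pairing by number was thus visible, but the correlations cannot show whether same-numbered cultures were handled together. With the replicate number as a block, 3 members were higher and 4 lower in WERI and 3 and 3 in Y79. Over all 14865 tested genes, that fit gave 3984 higher and 5410 lower in WERI, and 4257 and 5634 in Y79. The lower call of TET1 between the treated lines was lost as the 1 member call to change, and the paired sign-flip tests of the ratios gave exact p = 0.25, 0.25, 0.25 and 0.5. The cause of these shifts was not tested. The SE was widest for DNMT3B (0.155 in WERI), and what set it was not tested.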
